A study of Bos taurus with 6 samples.

Results

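The genes described here encode the simple epithelial keratins KRT7, KRT8, KRT18 and KRT19 and the desmosome proteins DSP, JUP, DSG2, DSC2, PKP2 and PKP3. They were chosen by name, with earlier results of these data known, as 10 of the 15314 named genes of the deposited table. Each had 1 row, and all 10 passed the minimum mean of 10 scaled read counts that 12070 genes passed; DSC2 had the lowest mean, at 49.9. Polyadenylated RNA had been sequenced from Bos taurus embryos produced by in vitro fertilization and collected as late morulae on day 6. The 3 groups were controls injected with a nonspecific small interfering RNA, embryos with a knockdown (KD) of NOTCH1, and embryos with a knockdown of RBPJ. Each group had 2 libraries, and each library pooled 15 embryos, so that differences between embryos or between cells of an embryo are averaged. The same amount of GFP and RFP messenger RNA was added to every group as a spike-in when RNA was extracted; it was not used here. NOTCH1 is a receptor of the NOTCH pathway and RBPJ is the DNA-binding protein through which activated receptors act on transcription. The comparisons ask how these transcripts differ when either component is depleted before the blastocyst forms.

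Simple epithelial keratins build the intermediate filaments of single-layered epithelia. A type II keratin, such as KRT7 or KRT8, pairs with a type I keratin, such as KRT18 or KRT19, and neither type forms a stable filament alone. Desmosomes are the junctions to which these filaments attach: the cadherins DSG2 and DSC2 bridge the gap between cells, the armadillo proteins JUP (plakoglobin), PKP2 and PKP3 bind the cadherin tails, and DSP (desmoplakin) ties that plaque to keratin. In mammalian embryos this equipment is a hallmark of the trophectoderm, the outer epithelium that encloses the blastocoel.

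The targeted genes were checked first. RBPJ had scaled counts of 447 and 391 in the control against 121 and 94.5 after its own knockdown, and it was the single gene to pass in that comparison (log2 fold change -1.96, limma adjusted p = 0.00143). NOTCH1 had 69.6 and 139.8 in the control, 48.0 and 49.5 in the NOTCH1 knockdown, and 50.02 and 125 in the RBPJ knockdown; its difference in the NOTCH1 knockdown did not pass (log2 fold change -1.003, limma adjusted p = 0.634). Of 12 markers of the late morula, 10 had a row and all 10 were tested, with POU5F1 between 10911 and 12942 and CDX2 between 624 and 976. Of the cumulus, granulosa and fibroblast markers, 16 had a row and 12 passed the minimum mean. The cumulus genes HAS2 and TNFAIP6 reached at most 10.9 and 15.0, while PDGFRA had 830.3 to 995 and COL1A1 286 to 346. The listed granulosa markers CYP19A1, LHCGR, STAR and INHBA had 114 to 172, 52.2 to 89.8, 57.2 to 92.7 and 27.6 to 54.6. AMH had 13.3 to 39.0, and FOXL2 reached at most 16.2. Of the 4 marker lists, no gene with a row was at 0 in every library. Library totals lay between 10400000 and 10800000 scaled counts. Counting error alone, estimated from the approximate reads, was at most 16.7% of the value for DSC2 and 1.16% for KRT8. Nothing in the labels says that the pools came from separate fertilizations, so the p-values given here cover only the spread among these pools, which may be technical.

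In NOTCH1 knockdown embryos the keratin and desmosome transcripts had higher means than in the control, but none of the 10 passed the test. These genes vary together and were chosen with earlier results of these data known. The shares given here and in the other comparisons therefore describe the list and are no test of it. All 10 had a positive log2 fold change, from 0.04 for PKP2 to 0.56 for JUP, where 51.1% of all tested genes had one. Their median was 0.38, against 0.01 over all tested genes. For 5 of the 10 (KRT8, DSP, JUP, PKP2 and PKP3) both knockdown libraries lay above both control libraries, a layout that 18.6% of tested genes showed. limma called 0 of the 10 and 0% of the 12070 genes, while 3 of the 10 (DSP, JUP and PKP3) and 7.29% of all genes had an unadjusted p below 0.05. When the replicate number of the labels was added to the fit as a block, 3 of the 10 passed upward, namely KRT18, DSP and JUP, against 0.737% of tested genes. The labels do not say that equal numbers pair the libraries, so these calls rest on an assumption. The block leaves fewer residual degrees of freedom, and the standard errors borrow from the variance trend over all genes. For JUP and KRT18 the residual SD was 0.23 and 0.15, while the standard error used was 0.11 and 0.09. For DSP these were 0.07 and 0.09. Replicate 1 of the NOTCH1 knockdown held the highest value of 8 of the 10 genes, and without that library the median was 0.13. How many of all tested genes were highest in that library was not counted. In pooled embryos a larger share of cells with these transcripts and more transcript per cell cannot be told apart.

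**Figure D1:**
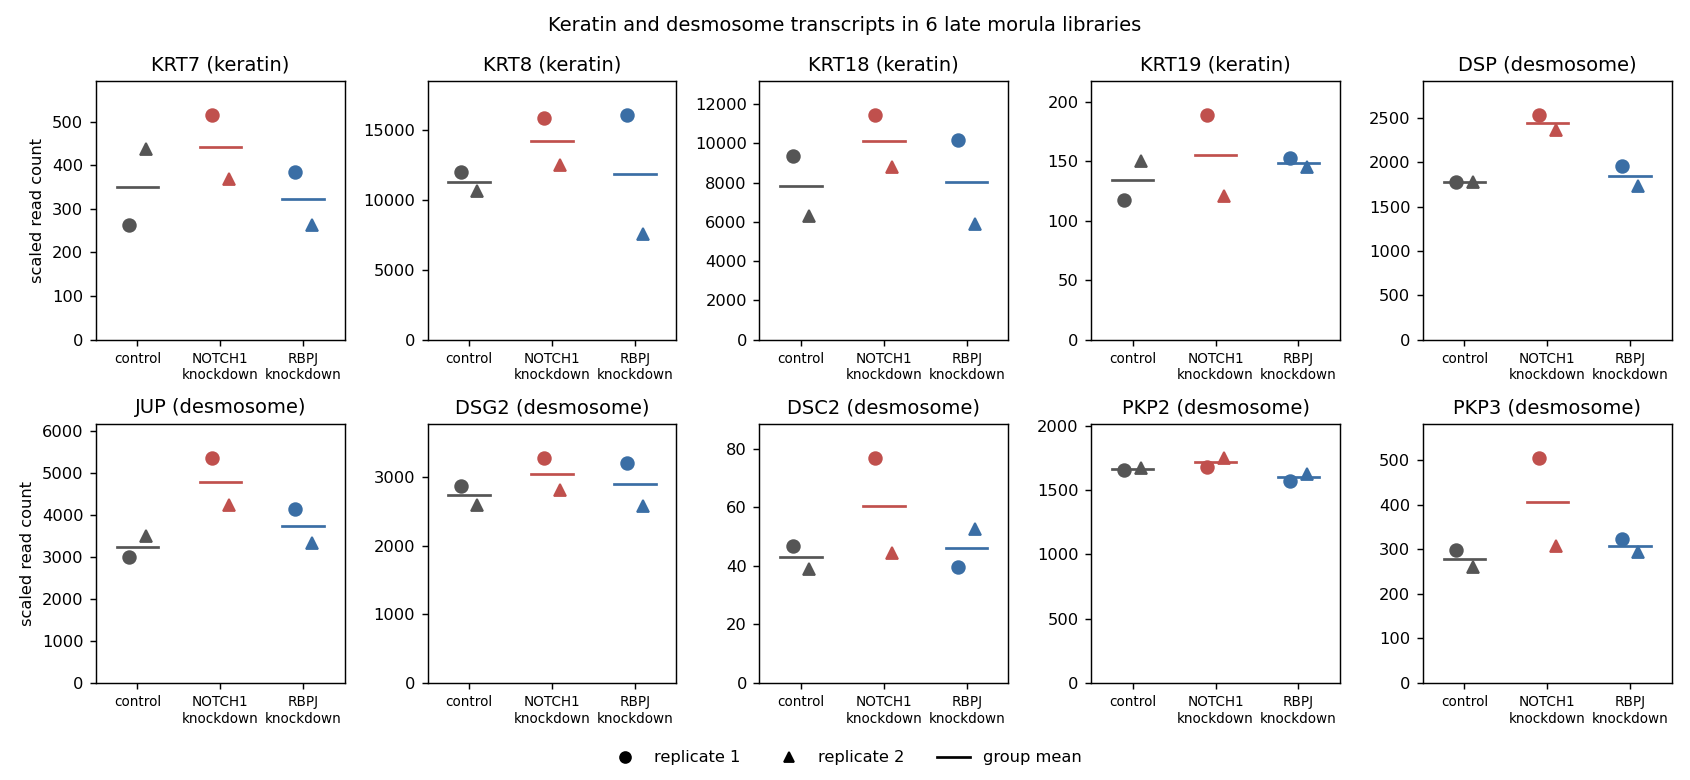
Scaled read counts (vertical axes, each from 0) of the 10 genes in the control, NOTCH1 knockdown and RBPJ knockdown libraries; circles are replicate 1, triangles replicate 2, and bars the mean of 2 libraries. DSP and JUP of the NOTCH1 knockdown sit above all 4 other libraries, while KRT8 in the RBPJ knockdown spans 7578 to 16107.

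Desmoplakin and plakoglobin, the linkers of the plaque, gave the clearest separation. DSP had scaled counts of 1777 and 1781 in the control, 2538 and 2360.0 in the NOTCH1 knockdown, and 1964 and 1733 in the RBPJ knockdown. The control libraries were nearly equal, and both NOTCH1 knockdown libraries lay above all 4 others. The control averaged 1779 ± 3.08 (SD, n = 2), and the NOTCH1 knockdown averaged 2449 ± 126 (SD, n = 2). The log2 fold change was 0.46 (standard error 0.11) with a 95% interval of 0.23 to 0.69, which did not pass without the block (limma, adjusted p = 0.353) and passed with it (limma, adjusted p = 0.0188). Over the other 16 settings tried its adjusted p ran from 0.233 to 0.999.

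JUP, the plakoglobin that desmosomes share with adherens junctions, had scaled counts of 2981 and 3500.4 in the control, 5349 and 4228 in the NOTCH1 knockdown, and 4143 and 3335 in the RBPJ knockdown. Both NOTCH1 knockdown libraries were again above all 4 others, although replicate 2 exceeded replicate 1 of the RBPJ knockdown by little. The control averaged 3241 ± 367 (SD, n = 2), and the NOTCH1 knockdown averaged 4788 ± 792 (SD, n = 2). The log2 fold change was 0.56 (standard error 0.14) with a 95% interval of 0.25 to 0.86 (limma, adjusted p = 0.380 without the block and 0.0155 with it). Over the other 16 settings the adjusted p ran from 0.168 to 0.999. By unadjusted p, DSP ranked 30th and JUP 56th of the 12070 genes in this comparison.

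The plakophilins, which cluster the cadherins and bind desmoplakin, differed from each other in their estimates. PKP3 had scaled counts of 298 and 260.0 in the control, 505 and 307 in the NOTCH1 knockdown, and 323 and 293 in the RBPJ knockdown. Its NOTCH1 knockdown libraries lay above both control libraries, but replicate 1 carried most of the distance: the log2 fold change of 0.50 (limma, adjusted p = 0.650) was 0.14 without that library. PKP2 had 1655 and 1676 in the control, 1684 and 1751 in the NOTCH1 knockdown, and 1574 and 1626 in the RBPJ knockdown. It was the steadiest of the 10, with a highest value 1.11 times its lowest, and 1.13% of tested genes had a smaller residual SD. The 95% interval of its log2 fold change in the NOTCH1 knockdown, -0.18 to 0.27, overlaps that of DSP, 0.23 to 0.69. Differences between genes were not tested.

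The desmosomal cadherins gave smaller or less certain differences. DSG2, the desmoglein of simple epithelia, had scaled counts of 2878 and 2598 in the control, 3284 and 2821 in the NOTCH1 knockdown, and 3211 and 2583 in the RBPJ knockdown. All 3 groups overlapped, and the log2 fold change in the NOTCH1 knockdown was 0.15 with a 95% interval of -0.12 to 0.43. DSC2, its desmocollin partner, had 46.9 and 38.8 in the control, 76.9 and 44.4 in the NOTCH1 knockdown, and 39.5 and 52.7 in the RBPJ knockdown. One library, replicate 1 of the NOTCH1 knockdown, stood apart from the others. At this depth its 95% interval of -0.31 to 1.2 allowed changes in either direction (log2 fold change 0.44, limma adjusted p = 0.831). Without replicate 1 of the NOTCH1 knockdown the log2 fold changes of DSG2 and DSC2 were 0.04 and 0.05.

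Among the keratins, libraries of 1 group differed by as much as the groups did. KRT8 had scaled counts of 11997 and 10629.9 in the control, 15897 and 12502 in the NOTCH1 knockdown, and 16107 and 7578 in the RBPJ knockdown. The NOTCH1 knockdown libraries lay above both control libraries, whereas the RBPJ knockdown held both the highest and the lowest of the 6 values. KRT18, its type I partner, had 9355 and 6298 in the control, 11454 and 8816 in the NOTCH1 knockdown, and 10168 and 5878 in the RBPJ knockdown. Its groups overlapped, since replicate 2 of the NOTCH1 knockdown lay below replicate 1 of the control. The log2 fold changes in the NOTCH1 knockdown were 0.32 for KRT8 (standard error 0.25; limma, adjusted p = 0.831) and 0.39 for KRT18 (standard error 0.23; limma, adjusted p = 0.761). With the replicate block the standard error of KRT18 was 0.09 and it passed (limma, adjusted p = 0.0415), while KRT8 did not (limma, adjusted p = 0.306). Over the other 16 settings the adjusted p of KRT18 ran from 0.529 to 0.999. Its log2 fold change was 0.67 without replicate 1 of the control, 0.10 without replicate 2 of the control and 0.20 without replicate 1 of the NOTCH1 knockdown; that of KRT8 was 0.15 without the last. Between libraries of the same number, KRT18 was higher in the NOTCH1 knockdown than in the control by 0.29 for number 1 and by 0.49 for number 2 on the log2 scale. KRT8 gave 0.41 and 0.23, whereas KRT7 gave 0.97 and -0.25 and KRT19 gave 0.68 and -0.32. In the RBPJ knockdown against the control, KRT18 gave 0.12 and -0.10 and KRT8 gave 0.42 and -0.49.

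KRT7, the second type II keratin, had scaled counts of 262 and 437 in the control, 516 and 368 in the NOTCH1 knockdown, and 384 and 263 in the RBPJ knockdown. The NOTCH1 knockdown libraries lay on either side of replicate 2 of the control, and the log2 fold change of 0.36 (limma, adjusted p = 0.801) became -0.0035 without replicate 1 of the control. KRT19, the smallest type I keratin, had 117 and 150.3 in the control, 189 and 121 in the NOTCH1 knockdown, and 152 and 145 in the RBPJ knockdown. Its log2 fold change of 0.18 (limma, adjusted p = 0.912) turned to -0.14 without replicate 1 of the NOTCH1 knockdown.

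**Figure D2:**
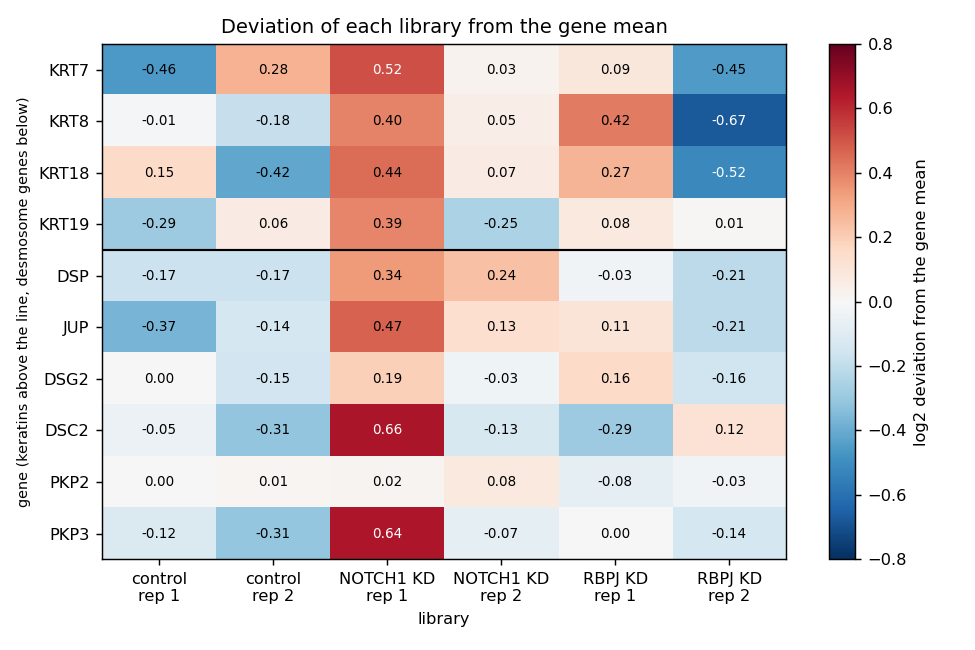
Log2 deviation of each library (columns) from the mean of that gene over the 6 libraries (rows), with the value printed in each cell and the colour scale running from -0.8 to 0.8. All 10 cells of replicate 1 of the NOTCH1 knockdown are positive, as were 6448 of the 12070 tested genes in that library. The row of PKP2 stays between -0.08 and 0.08.

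Keratin values also differed between the libraries of a group. Taken from the mean of each gene over all 6 libraries, the median deviation of the 4 keratins was 0.42 in replicate 1 and 0.04 in replicate 2 of the NOTCH1 knockdown, and 0.18 in replicate 1 and -0.49 in replicate 2 of the RBPJ knockdown. In the control it was -0.15 and -0.06. All 4 keratins were higher in replicate 1 than in replicate 2 in both knockdown groups, and 2 of the 4 in the control. The 6 desmosome genes had a median deviation of 0.41 and 0.02 in the NOTCH1 knockdown, -0.02 and -0.15 in the RBPJ knockdown, and -0.08 and -0.16 in the control. Over all tested genes the medians of the libraries, which the authors had scaled, lay within 0.02 of 0. KRT8, KRT18 and KRT7 were among the more variable transcripts, with 89.9%, 87.3% and 87.1% of tested genes having a smaller residual SD, against 14.8% for DSP.

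In RBPJ knockdown embryos none of the 10 genes passed, and their estimates lay on both sides of the control. limma called 0 of the 10, where it called 0.00829% of tested genes, and none of the 10 had an unadjusted p below 0.05 against 4.34% of all genes. With the replicate block it called 0 of the 10 and 0.0994% of tested genes. Of the 10, 7 had a positive and 3 a negative log2 fold change, and the median was 0.06 against 0.00 over all tested genes, of which 49.7% were positive. JUP had the largest estimate, 0.20 with a 95% interval of -0.10 to 0.51. For DSP the estimate was 0.05 with an interval of -0.18 to 0.29. PKP2 was the single member whose RBPJ knockdown libraries did not overlap the control, and they were lower (log2 fold change -0.06, limma adjusted p = 0.995), a layout of 16.8% of tested genes; none lay wholly above it, as 15.3% of tested genes did.

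In the RBPJ knockdown the keratin estimates turned with single libraries. KRT8 had a log2 fold change of -0.03 with a 95% interval of -0.58 to 0.51, and leaving out replicate 2 of that group gave 0.51 while leaving out replicate 1 gave -0.58. For KRT18 the estimate was 0.01 and the same omissions gave 0.41 and -0.38. The estimates for KRT7 and KRT19 were -0.09 and 0.16, with intervals of -0.64 to 0.46 and -0.37 to 0.69. These intervals leave room for changes of the size seen in the NOTCH1 knockdown.

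**Figure D3:**
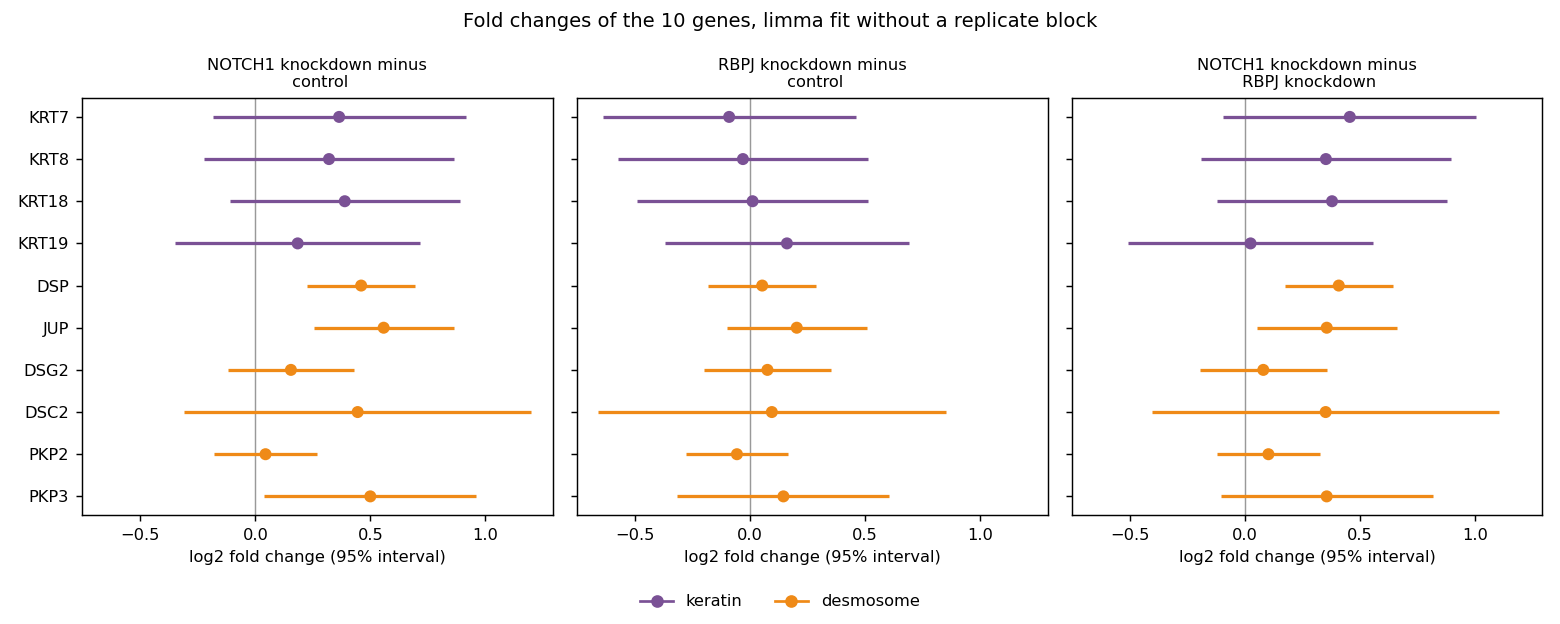
Log2 fold changes (horizontal axis) of the 10 genes in 3 comparisons, as points with 95% intervals from limma without a replicate block. Against the control, the intervals of DSP, JUP and PKP3 in the NOTCH1 knockdown lie above 0, while every interval of the RBPJ knockdown spans 0.

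The knockdowns were also compared directly, which tests whether their effects differ. All 10 genes were higher in the NOTCH1 knockdown by sign, as were 52.7% of tested genes, and none passed, where 0.00829% of tested genes did. DSP had a log2 difference of 0.41 (standard error 0.11; limma, adjusted p = 0.956) and JUP one of 0.36 (standard error 0.14; limma, adjusted p = 0.999). These 2 of the 10, and 3.64% of tested genes, had an unadjusted p below 0.05. With the block none of the 10 passed, where 0.124% of tested genes did, and DSP had the smallest value (limma, adjusted p = 0.0977). DSP, JUP and PKP2 were the 3 genes whose NOTCH1 knockdown libraries both lay above both RBPJ knockdown libraries, a layout of 17.5% of tested genes. The difference of KRT8, 0.35, turned to -0.19 without replicate 2 of the RBPJ knockdown. This comparison and that with the control share the NOTCH1 knockdown libraries.

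Ratios between partner transcripts show how far the members moved together. The values are not per length, so a ratio is read only between libraries. The KRT8 to KRT18 ratio was 1.28 and 1.69 in the control, 1.39 and 1.42 in the NOTCH1 knockdown, and 1.58 and 1.29 in the RBPJ knockdown. Its highest value was 1.32 times its lowest, while KRT8 alone spanned 2.13 times and KRT18 alone 1.95 times. The KRT7 to KRT19 ratio, between the other type II and type I keratins, was 2.23 and 2.91 in the control, 2.73 and 3.05 in the NOTCH1 knockdown, and 2.52 and 1.82 in the RBPJ knockdown. It spanned 1.68 times, more than KRT19 alone at 1.61 times and less than KRT7 alone at 1.97 times. The DSP to PKP2 ratio was 1.07 and 1.06 in the control, 1.51 and 1.35 in the NOTCH1 knockdown, and 1.25 and 1.07 in the RBPJ knockdown. Both NOTCH1 knockdown libraries had a higher ratio than the 4 others. They also did for DSP to DSG2, with 0.617 and 0.686 in the control, 0.773 and 0.837 in the NOTCH1 knockdown, and 0.611 and 0.671 in the RBPJ knockdown. Both ratios divide DSP, which by itself lay above the 4 others in these libraries, so they are not separate observations. The JUP to DSP ratio overlapped between the groups. It was 1.68 and 1.97 in the control, 2.11 and 1.79 in the NOTCH1 knockdown, and 2.11 and 1.92 in the RBPJ knockdown. All these ratios were chosen after the values had been seen and were not tested.

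**Figure D4:**
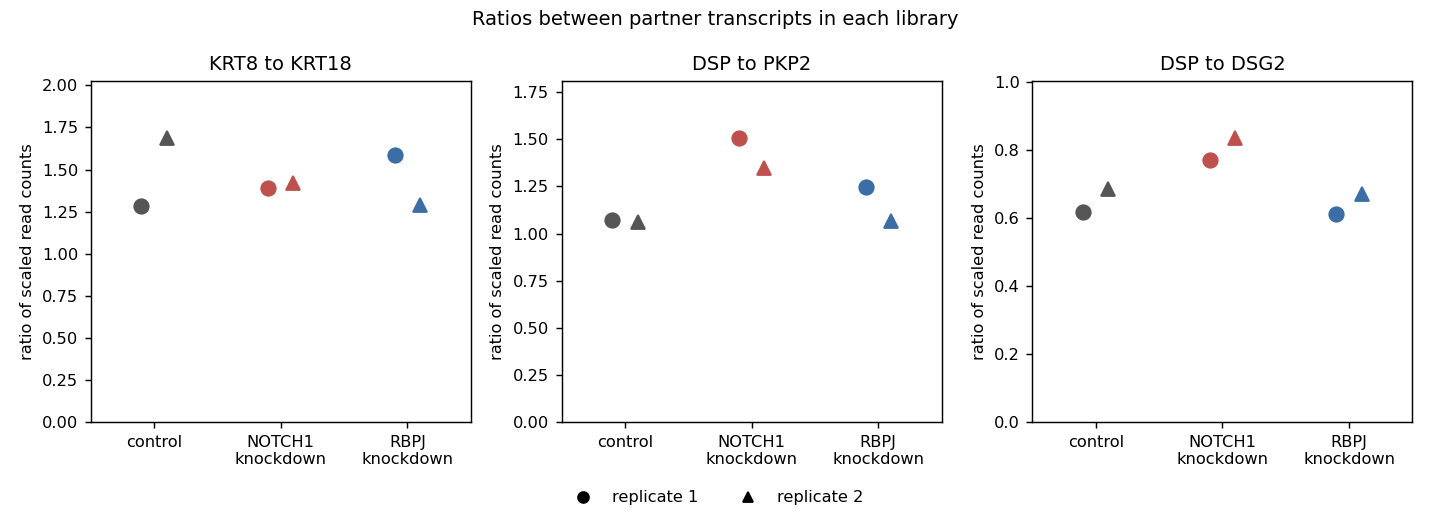
Ratios of scaled read counts (vertical axes, each from 0) for KRT8 to KRT18, DSP to PKP2 and DSP to DSG2 in each library; circles are replicate 1 and triangles replicate 2. The NOTCH1 knockdown has both of the highest values of DSP to PKP2 and of DSP to DSG2, whereas KRT8 to KRT18 overlaps between groups.

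Markers of the embryo's own lineages were read beside these genes. GATA3, a transcription factor of the trophectoderm, had 577 and 515 scaled counts in the control, 1018 and 856 in the NOTCH1 knockdown, and 737 and 391 in the RBPJ knockdown. CDX2, another one, had 654 and 744 in the control, 976 and 832 in the NOTCH1 knockdown, and 682 and 624 in the RBPJ knockdown. Neither passed in the NOTCH1 knockdown (log2 fold changes 0.78 and 0.37, limma adjusted p = 0.466 and 0.566), and GATA3 passed with the block (limma, adjusted p = 0.0119), as it did between the knockdowns (limma, adjusted p = 0.999 without the block and 0.0225 with it). Both belong to the 10 late morula markers, of which 9 were higher and 1 was lower by sign in the NOTCH1 knockdown. There POU5F1, TEAD4, TFAP2C and NANOG had log2 fold changes of 0.20, 0.19, 0.14 and -0.08. The 10 late morula markers summed to between 39496 and 42864 in the control, 45519 and 47067 in the NOTCH1 knockdown, and 42265 and 43932 in the RBPJ knockdown. The 19 oocyte and maternal transcripts with a row summed to 2739 to 3088, 2585 to 2593 and 2237 to 2561 in the same order. DPPA3, at 1363 to 1822 over the libraries, made up much of these sums. Of the 17 tested, 1 was higher and 16 were lower by sign in each knockdown (medians -0.77 and -0.72). In the NOTCH1 knockdown the 1 higher was DPPA3. None passed without the block. With it 4 were called lower in the NOTCH1 knockdown, where 138 of the 12070 tested genes were called, 89 of them upward. The 16 cumulus, granulosa and fibroblast markers summed to 1885 to 2113, 1828 to 1908 and 1954 to 2092, and the 11 blood and immune markers to 2383 to 3424, 2094 to 2658 and 2446 to 3017. Of the latter, HBA (976 to 1380) and CSF1R (843 to 1829) made up most of each sum. Of these 11 markers, 6 passed the minimum mean and 5 did not. Among the 5 were PTPRC and HBB, which reached at most 11.3 and 8.63. CSF1R, a receptor of macrophages and of trophoblast, had a log2 fold change of -0.68 in the NOTCH1 knockdown (limma, adjusted p = 0.461 without the block and 0.00671 with it). The 10 markers of stratified epithelium summed to 5908 to 6503, 5746 to 5846 and 5717 to 6194, most of it KRT5. The part of these shifts in the keratin and desmosome values was not tested.

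Other keratins were mostly lower by sign in NOTCH1 knockdown embryos. Of 35 listed, 22 had a row and 8 were tested; 1 was higher and 7 were lower (median log2 fold change -0.13), and none passed in any comparison without the block. KRT6A, a keratin of stressed and stratified epithelium, had 90.8 and 107 in the control, 58.2 and 54.9 in the NOTCH1 knockdown, and 121 and 352 in the RBPJ knockdown. Replicate 2 of the RBPJ knockdown stood far above the rest. Between the knockdowns KRT6A differed by -1.85 (limma, adjusted p = 0.677 without the block and 0.00585 with it). Reads of KRT6A can be shared with its near-identical copies. KRT80 and KRT5 had log2 fold changes of -0.28 and -0.10 in the NOTCH1 knockdown, and -0.25 and -0.06 in the RBPJ knockdown.

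Of 12 other desmosome and cornified junction proteins, 9 were tested, with 7 higher and 2 lower by sign in the NOTCH1 knockdown (median 0.18) and 5 higher and 4 lower in the RBPJ knockdown (median 0.03). None passed in either, with or without the block. PPL (periplakin), a plakin related to desmoplakin, had 182 and 153 in the control, 280.03 and 189 in the NOTCH1 knockdown, and 285 and 191 in the RBPJ knockdown. PKP4 and PERP, a plakophilin relative and a desmosomal membrane protein, had log2 fold changes of 0.37 and 0.18 in the NOTCH1 knockdown. Of the desmogleins and desmocollins of stratified epithelium, DSG1 reached at most 10.2, DSC1 at most 5.93 and DSG4 at most 2.31, whereas DSG3 had 147 to 238 and DSC3 33.7 to 85.8 scaled counts.

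Genes that hold or regulate keratin filaments went both ways. Of 20 tested linkers, chaperones and regulators, 12 were higher and 8 lower by sign in the NOTCH1 knockdown (median 0.04), 11 higher and 9 lower in the RBPJ knockdown (median 0.07), and none passed. HSPB1, a small heat shock protein that binds intermediate filaments, and FAM83H, which organizes keratin, had log2 fold changes of 0.38 and 0.37 in the NOTCH1 knockdown and 0.28 and 0.32 in the RBPJ knockdown. EPPK1 (epiplakin), a keratin-binding plakin, had 1084 and 1362 in the control, 1038 and 925 in the NOTCH1 knockdown, and 958 and 692 in the RBPJ knockdown; its log2 fold change in the last was -0.58 (limma, adjusted p = 0.983). Of 13 other intermediate filament genes, 8 were higher and 5 lower by sign in each knockdown, with NES (nestin) at 0.28 and 0.41 and SYNC and NEFH at 0.94 and -0.46 in the NOTCH1 knockdown.

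In the NOTCH1 knockdown the other adhesion lists gave smaller medians than the 10. Of 10 adherens junction genes, 8 were higher and 2 lower by sign in the NOTCH1 knockdown (median 0.14), and 7 higher and 3 lower in the RBPJ knockdown (median 0.11). NECTIN2, an adhesion molecule of the immunoglobulin family, had 1031 and 1201 in the control, 1930.3 and 1447 in the NOTCH1 knockdown, and 1462 and 1457 in the RBPJ knockdown. It did not pass in the NOTCH1 knockdown (log2 fold change 0.59, limma adjusted p = 0.353) but did with the block (limma, adjusted p = 0.0189). VCL (vinculin) and NECTIN1 had log2 fold changes of 0.36 and 0.33. Of 8 hemidesmosome genes, 6 were higher by sign (median 0.13), with COL17A1, DST and ITGB1 at 0.29, 0.13 and 0.15, and of 23 desmosome assembly and turnover genes 13 were higher (median 0.06), with ZDHHC5, TMEM87A and TFAP2A at 0.31, -0.36 and -1.62. None of these passed in the RBPJ knockdown, with or without the block.

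**Figure D5:**
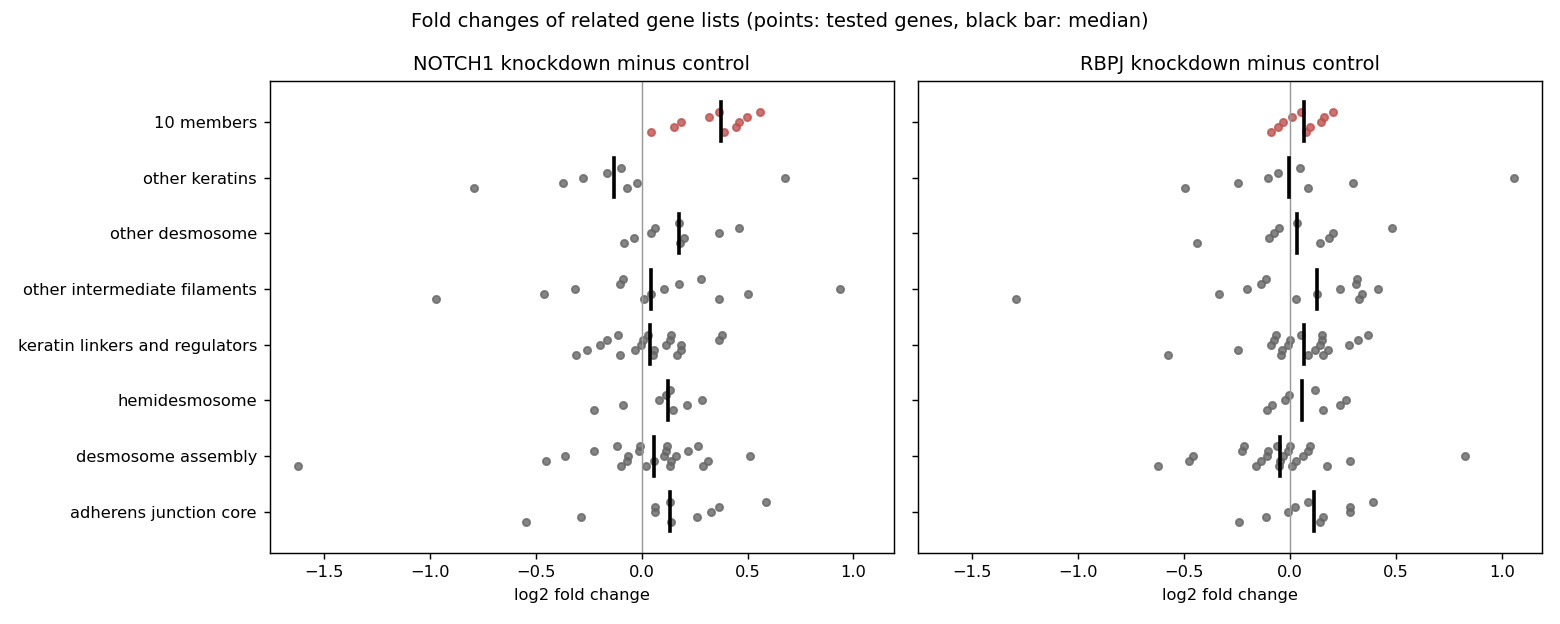
Log2 fold changes (horizontal axis) of the 10 members and of the tested genes of 7 related lists in both knockdowns against the control; points are genes and black bars medians. In the NOTCH1 knockdown the median of the members is 0.38 and that of the other keratins -0.13.

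Over the 6 libraries, the genes whose values most resembled the mean profile of the 4 keratins were KIFC3, EZR, TTF2, DPP3 and DET1, with Pearson r between 0.992 and 0.995. They were taken from 8442 genes with a mean of at least 100. EZR (ezrin), which links actin to the plasma membrane, had 14338 and 14776 in the control, 20070.0 and 15088 in the NOTCH1 knockdown, and 17575 and 11363 in the RBPJ knockdown. As for KRT8, replicate 1 of each knockdown held its highest values and replicate 2 of the RBPJ knockdown its lowest. For the 6 desmosome genes they were DALRD3, DBN1, CMTM7, OTUB1 and DBNL, with r between 0.984 and 0.993. DBN1 (drebrin) and DBNL, both actin-binding proteins, had their highest value in replicate 1 of the NOTCH1 knockdown, at 11599 and 2624. With 6 libraries that share 3 groups, such coefficients only rank the genes.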

How the data were processed

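Each gene and library has 1 deposited signal value, which the values show to be a read count scaled by the authors, not per length. The build ARS-UCD1.2 and the tools Salmon 0.14.1 and DESeq2 are named, per the submitters' processing notes; annotation, filters and gene summing were not given in the sources used here. Of low values (under 8), 85.1% to 87.0% were within 0.1 of a whole multiple of 1 step per library, which is not nearly all, and a count test was therefore not run; totals divided by steps give about 9600000 to 13700000 reads, most in replicate 1 of the RBPJ knockdown. Unnamed rows, 2551 of 17922 with 6.20% to 7.22% of a library, were left out, and a repeated symbol kept its row with the highest mean. Transcripts with near-identical copies or processed pseudogenes, as KRT8 and KRT18 have in mammals, can share reads in ways these values do not show.

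Values were analysed as log2(value + 1), a scale on which the fold changes of genes with low values are understated. The 12070 genes with a mean of at least 10 were fitted with limma 3.58.1 in R 4.3.3 on group means over all 6 libraries (3 residual degrees of freedom, variance trend on level), with Benjamini-Hochberg adjusted p below 0.05 called; the fit was tested on simulated data. Named genes are the 10 members, the targeted genes, up to 3 genes with the smallest p of each related list (up to 4 where at least 2 passed), markers, and the 5 genes most like each family. DSG1, DSG3, DSG4, DSC1, DSC3, KRT14, KRT15, PDGFRA, COL1A1 and CSF1R were named after their values were seen. So were NANOG, TEAD4, TFAP2C, CYP19A1, LHCGR, STAR, INHBA, AMH, FOXL2, HBA, HBB, PTPRC and DPPA3. Members and lists were chosen with earlier results of these data known. Deviations from the group means of same-numbered libraries correlated over the 12070 genes at 0.17 (control and NOTCH1 knockdown), 0.20 (control and RBPJ knockdown) and 0.21 (both knockdowns). All exceed 0.1, and the fit with a replicate block is therefore given where it changes a call. With 2 libraries a group, renumbering 1 group would turn the sign of its correlations. These values therefore cannot settle whether equal numbers pair the libraries, and the labels do not say what a number marks. Other settings were a pseudocount of 0.1 or 10, a minimum mean of 100 or none, scaling by median of ratios or quantiles, only the groups compared, no trend, a robust trend, summed rows, a threshold of 0.1, the block and each library left out. Figures were drawn with matplotlib 3.10.9.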

Additional observations from a re-analysis of the deposited data

Results flagged for a closer look

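PKP2 was singled out because the libraries of the knockdowns lay on opposite sides of the control. Both NOTCH1 knockdown libraries (1684 and 1751 scaled counts) lay above both control libraries (1655 and 1676), and both RBPJ knockdown libraries (1574 and 1626) lay below them. The distances were small, with fold changes of 1.03 and 0.96, and counting error alone was up to 2.55% of a value. How many of all genes had this layout was not counted. The difference between the knockdowns was tested directly and did not pass, at 0.10 on the log2 scale with a 95% interval of -0.12 to 0.33 (limma, adjusted p = 0.999; the lowest over the other settings was 0.905).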

How the results depend on the processing

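With the replicate block limma called 3 of the 10 genes in the NOTCH1 knockdown, and 138, 12 and 15 of all genes in the NOTCH1, RBPJ and direct comparisons, against 0, 1 and 1 without it; it changed no other call of a member. Without the variance trend the RBPJ and direct comparisons each called 0 of all genes (unadjusted p below 0.05 in 535 and 538). No other planned setting that kept all libraries changed a call or a direction of a member; with a minimum mean of 100 DSC2 was not tested. Leaving out each library in turn called 0 of the 10 in every comparison, and 0 to 1, 1 to 3 and 0 to 3 of all genes; 3 came without replicate 2 of the control and without replicate 1 of the RBPJ knockdown. In the NOTCH1 knockdown the lowest median of the members was 0.13, when its replicate 1 was omitted, and the highest 0.54; the medians were -0.04 to 0.20 in the RBPJ knockdown, and 0.15 to 0.52 between the knockdowns.

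Omitting a library reversed the sign of several uncalled fold changes, whose ranges follow, and the cause was not tested. In the NOTCH1 knockdown they were -0.0035 to 0.73 for KRT7 and -0.14 to 0.51 for KRT19. In the RBPJ knockdown they were -0.46 to 0.28 for KRT7, -0.58 to 0.51 for KRT8, -0.38 to 0.41 for KRT18, -0.018 to 0.34 for KRT19, -0.038 to 0.14 for DSP, -0.082 to 0.23 for DSG2 and -0.11 to 0.30 for DSC2. Between the knockdowns they were -0.19 to 0.90 for KRT8, -0.017 to 0.77 for KRT18, -0.30 to 0.35 for KRT19, -0.077 to 0.24 for DSG2, -0.040 to 0.74 for DSC2 and -0.0038 to 0.71 for PKP3. Where 1 library of a group was left, it was assumed to vary like the other groups. The counting error was largest for DSC2, at up to 16.7% of the value, and up to 9.50% for KRT19.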

Other observations

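Keratin genes lie in clusters, of which few genes passed the minimum mean. Of 57 keratin genes with a KRT symbol in RefSeq (assembly ARS-UCD2.0, used for names and order only), 36 had a row and 13 were tested. KRT8 and KRT18 are direct neighbours there, with 0 protein-coding genes between them. Of the 33 protein-coding genes from KRT18 to KRT7, KRT8 included, 17 had a row and 5 were tested. KRT5, a type II keratin of basal epithelial cells, was among them, with 5258 to 5966 scaled counts over the libraries. KRT14, its usual type I partner in skin, had 4.31 to 10.9, and KRT15, another type I keratin of basal cells, had 146 to 244.

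The desmosomal cadherin genes form a run as well: 4 protein-coding genes lie between DSC2 and DSG2, all 4 had a row, and DSG3 alone of them was tested, at 147 to 238 scaled counts. All 4 plakophilin genes were tested.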
